A study of Arabidopsis thaliana with 38 samples.

Results

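The xyloglucan endotransglucosylase/hydrolase family of Arabidopsis thaliana was taken as the 33 genes XTH1 to XTH33, chosen by their gene identifiers out of 27416 genes counted in both deposited tables. All 33 identifiers were present, and at least 1 read was counted for 32 of them. XTH22 is the gene first described as TCH4. RNA was measured in 4 genotypes with 2 libraries each, 8 in all: the pair H3.1 and H3.1S28A, and the pair H3.3 and H3.3S28A. The labels write 3 of these names as H31S28A, H33 and H33S28A. H3.1 and H3.3 are the replication-coupled and the replacement variants of histone H3, and S28A puts alanine, which cannot be phosphorylated, in place of the serine next to the lysine that Polycomb proteins methylate. The comparisons ask how RNA levels differ between each serine-to-alanine form and the unmutated form of the same variant. The labelled tissue is seedlings 2 weeks old, whereas the extraction text speaks of closed flower buds. Day length for the RNA plants, how the lines were made, whether a genotype is 1 line or several, and which native H3 genes remain are points on which the sources used here say nothing. Whether the libraries of a genotype came from separate cultures is not stated either, so p-values measure the spread between these samples only.

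Xyloglucan is the main hemicellulose of the primary cell wall of Arabidopsis, where it binds cellulose microfibrils. Most XTH enzymes cut a xyloglucan chain and join the cut end to another chain, which lets a growing wall be rebuilt without losing its strength. Members of the small branch with XTH31 and XTH32 can instead cut the chain with water, and XTH31 is known as a xyloglucan hydrolase. The family is usually divided into group I (XTH1 to XTH11), group II (XTH12 to XTH26) and group III (XTH27 to XTH33). XTH22 is the textbook touch gene of the family, since its RNA rises within minutes of mechanical stimulation and also responds to brassinosteroid, auxin, heat and cold. Members of group II such as XTH12 to XTH14, XTH17 to XTH21 and XTH26 are best known from roots.

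Total counts ran from 12865999 to 24449528 per library, so that 3 counts, the limit below which a level was not read, corresponded to 0.123 to 0.233 counts-per-million units (CPM). Replicates of a genotype correlated at 0.991 to 0.997 across genes on the log2 scale. The 6 leaf markers summed to 49723 to 51140 CPM with H3.1, 47538 to 49454 with H3.1S28A, 51315 to 52320 with H3.3 and 43625 to 47929 with H3.3S28A. Of these, RCA (log2 -0.83), LHCA1 (-0.53) and LHCB1.1 (-0.22) were called lower and PSAN (0.36) higher in H3.3S28A than in H3.3, while LHCB2.1 (0.45) and PSAN (0.62) were called higher in H3.1S28A than in H3.1. The 7 floral organ markers (AP1, AP3, PI, AG and SEP1 to SEP3) summed to 2.69 and 2.81 CPM in the H3.1 libraries, 66.1 and 10.6 in those of H3.1S28A, 0.662 and 0.846 with H3.3, and 186 and 177 with H3.3S28A. Of the 4 pollen markers, RBOHH and RBOHJ had no count in any library, and the list summed to at most 1.12 CPM. The 8 root markers summed to 15.6 to 20.8 CPM with H3.1 and 10.0 to 10.7 with H3.1S28A. They summed to 21.4 to 22.8 CPM with H3.3 and 13.7 to 14.4 with H3.3S28A. PHO1 made up most of each sum, with 112 to 440 counts per library, where no other root marker exceeded 27. PHO1 was called lower in both S28A genotypes (log2 -0.82 and -0.98), so the lower sums there rest on this gene. NRT2.1, which passed the count filter only through H3.3S28A, was called higher there (2.21). Over the 4 root markers tested in the H3.3 pair, the median log2 value was 1.36. These sums are of the library total; in bulk RNA, fewer cells of a type and less RNA per cell cannot be told apart. The floral organ marker RNA stood higher and PHO1 RNA lower in both S28A genotypes, and the leaf marker sum was lower in H3.3S28A. The part of these markers in any XTH difference below was not tested. Chloroplast genes took 0.858% of the counts of H3.3S28A replicate 2 and 0.0520% to 0.143% elsewhere.

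XTH transcripts made up more of the RNA in the S28A genotypes. Summed over the family, they reached 850 and 855 CPM in the H3.1 libraries against 1280 and 1172 in H3.1S28A. They reached 1017 and 1015 CPM in H3.3 against 1318 and 1342 in H3.3S28A. Neither S28A genotype overlapped its own control in this sum, which a few abundant members dominate. Between 24 and 29 members had at least 1 count in a library.

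Divided by gene span, the highest levels over the 8 libraries belonged to XTH9, known from shoot apices, at 146 CPM per kb, then to XTH4, also named EXGT-A1, at 99.3, and to XTH6 at 51.4. Other levels below are CPM after TMM scaling of the 8 libraries together, and are set between libraries of the same gene only. Of the 25 members tested in at least 1 comparison, 11 had their highest genotype mean in H3.3S28A, 9 in H3.1S28A, 3 with H3.3 and 2 with H3.1. The lowest mean was in H3.1 for 14 of these 25, in H3.3 for 7, and in each S28A genotype for 2. XTH3 and XTH29 passed the count filter only through H3.3S28A, and XTH18 only through H3.3. Their highest genotype was thus largely set by the filter. These ranks cross the 2 count tables, so table and genotype cannot be told apart in them, and no such ranking was made over all genes.

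**Figure D1:**
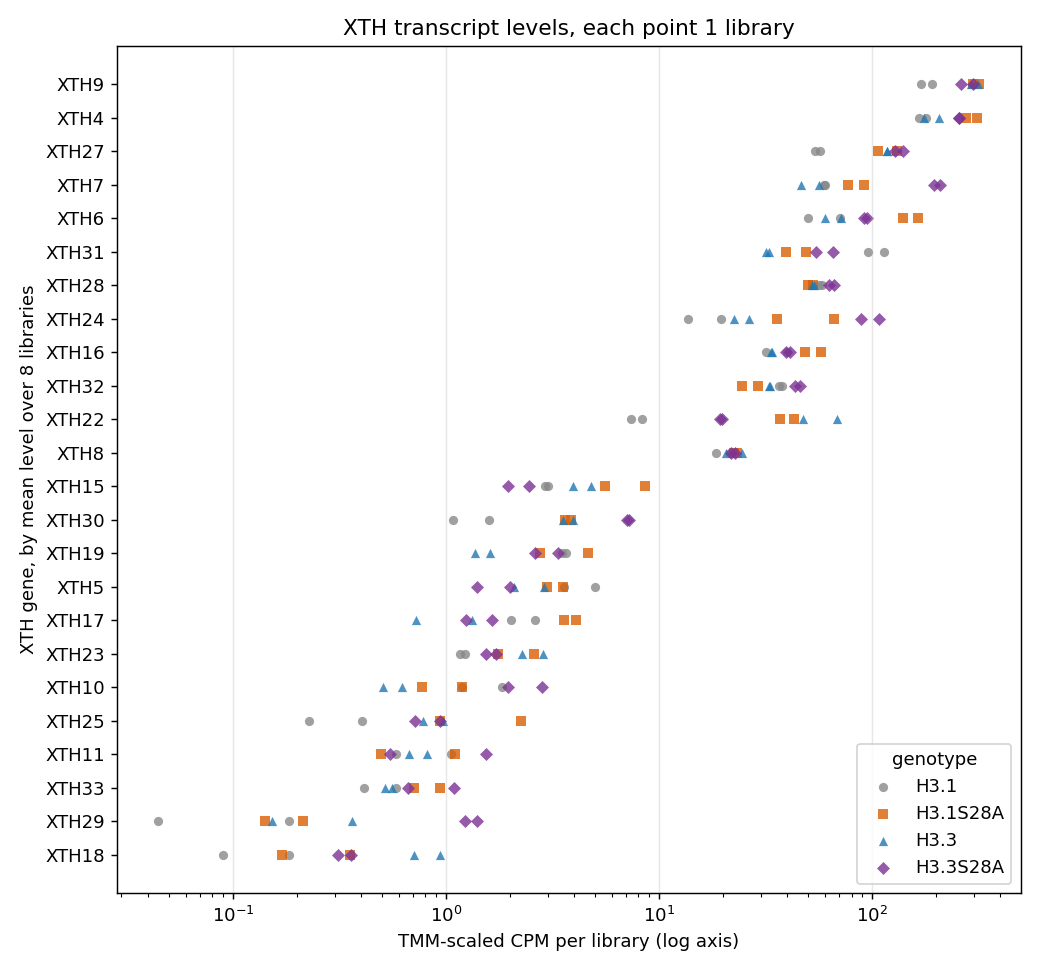
Levels in TMM-scaled CPM (horizontal log axis) of the 24 tested XTH genes with a count in every library, ordered upward by mean level; each point is 1 library and its colour and shape give the genotype. XTH9 and XTH4 sit at the top at 166 to 319 CPM, and the H3.1 points of XTH22 (8.31 and 7.38 CPM) lie left of its other points.

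In all, 8 members were too low to be tested anywhere. XTH1 had no count in any library, and XTH2, XTH12, XTH13, XTH14, XTH21 and XTH26 had 1 to 7 counts over all 8 libraries together. XTH20, which is known from roots, had 26 counts, of which 13 came from H3.3 replicate 1 and 1 from H3.3 replicate 2. The 2 replicates of H3.3 thus stood apart for XTH20. Its ratio of H3.3 to H3.1, from 14 counts against 1, was 15.9 with an exact 95% interval of 2.42 to 672 that covers counting error only. Without H3.3 replicate 2, XTH20 passed the filter through H3.3 replicate 1 alone, the library where it was high (log2 4.52). It could hardly have been called lower there. XTH3, XTH18 and XTH29 were tested only where the H3.3 libraries entered, since they had at most 5 counts in each H3.1 and H3.1S28A library.

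Against H3.1, the H3.1S28A libraries showed 11 of 22 tested XTH genes higher. The tests were edgeR quasi-likelihood fits with Benjamini-Hochberg adjustment over all genes tested, and a gene was called at an adjusted p under 0.05. Of 22 members tested, 11 were called higher and 2 lower, which is 59.1% of those tested, against 13.5% of all 18974 genes tested. The background was 8.23% for higher and 5.26% for lower calls. The median log2 fold change was 0.74 over the 22 members and -0.01 over all genes tested. XTH25 and XTH33 passed the count filter only through the H3.1S28A libraries. With 1 library left out, between 8 and 11 members were called higher and 1 or 2 lower. The 2 genotypes did not overlap for 19 of the 22, against 57.9% of all genes tested. By group, 4 of 8 tested members rose in group I, 5 of 8 in group II and 2 of 6 in group III, and both falling members, XTH31 and XTH32, belong to the hydrolase branch of group III.

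Against H3.3, the H3.3S28A libraries showed 14 of 25 tested members higher and 2 lower. These calls were 64% of the members tested, against 58.4% of all 19729 genes, so the share called was near the background in this comparison. The split by direction was 56% higher and 8% lower among members against 28.8% and 29.7% among all genes. The median log2 fold change was 0.49 over the 25 members and 0.01 over all genes. XTH3, XTH10 and XTH29, all among the higher members, passed the filter only through H3.3S28A and so could hardly have been called lower, and XTH18 passed only through H3.3. The split by direction therefore rests in part on the filter. Leaving out 1 library gave 9 to 14 members higher and 1 or 2 lower, and with the span trend removed 12 were higher and 4 lower, XTH9 and XTH23 being added to the lower ones. The 2 genotypes did not overlap for 20 of the 25, a share near the 79.5% of all genes tested. Group III had 6 of 7 tested members higher, group I had 5 of 9, and group II had 3 of 9 higher and both lower members, XTH15 and XTH22.

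**Figure D2:**
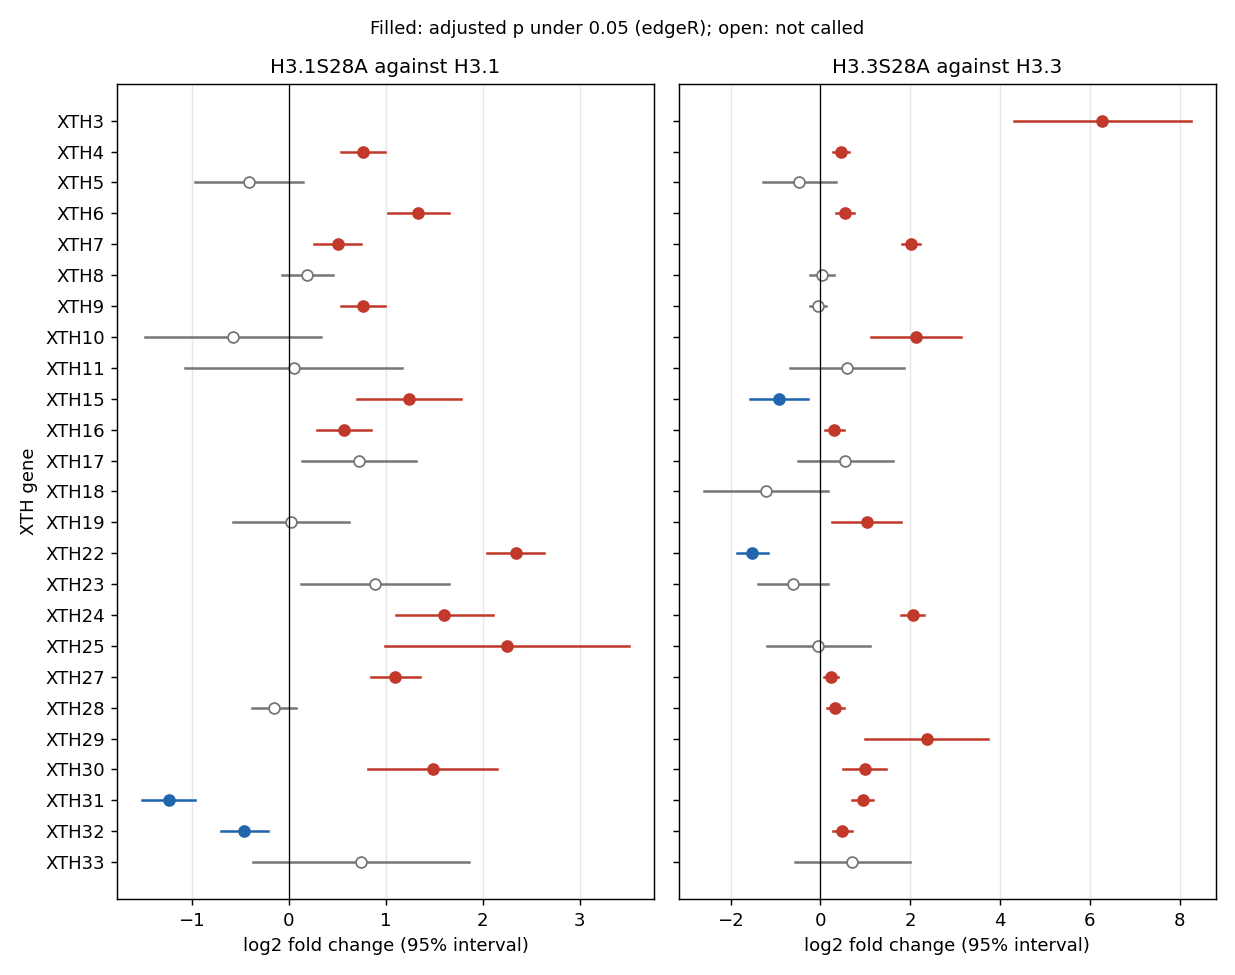
Log2 fold change of each tested XTH gene (vertical axis) in H3.1S28A against H3.1 (left, 22 genes) and H3.3S28A against H3.3 (right, 25 genes); lines are 95% intervals and filled points passed an adjusted p of 0.05. Points lie mostly right of 0 in both panels, while XTH22 and XTH15 lie right on the left panel and left on the right panel, and XTH31 and XTH32 do the reverse.

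Set side by side, 7 members were higher in both S28A genotypes: XTH4, XTH6, XTH7, XTH16, XTH24, XTH27 and XTH30. Of these, only XTH4, XTH6 and XTH24 kept both calls in every alternative run. Of all 18721 genes tested in both pairs, 4.9% were called higher in both. XTH15 and XTH22 were higher in H3.1S28A and lower in H3.3S28A, a pattern called for 1.27% of all genes. XTH31 and XTH32 were lower in H3.1S28A and higher in H3.3S28A, which was also called for 1.27%. XTH22 and XTH31 kept both pair calls in every alternative run, whereas XTH15 and XTH32 did not. XTH9 and XTH25 were called, as higher, in the H3.1 pair alone, a pattern called for 2.13% of all genes. XTH10, XTH19 and XTH28 were called, as higher, in the H3.3 pair alone among members tested in both. That pattern held for 21.9% of all genes and for these 3 of 22 members. The 6 members, of 22 tested in both pairs, that were called in neither were XTH5, XTH8, XTH11, XTH17, XTH23 and XTH33. Among all genes 36.9% were called in neither. XTH3 and XTH29 were higher in H3.3S28A and untested in the H3.1 pair, and XTH18 was not called.

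The difference between the effects was tested on all 8 libraries, as the change in H3.1S28A minus that in H3.3S28A. Of 25 members, 7 had a positive and 5 a negative difference that was called, or 48% against 39% of all 20052 genes tested, where 24.4% were positive and 14.6% negative. The positive differences were those of XTH6, XTH9, XTH15, XTH22, XTH23, XTH25 and XTH27, and the negative ones those of XTH7, XTH10, XTH28, XTH31 and XTH32. Group II held 4 of the positive differences and none of the negative ones among its 9 tested members, whereas group III held 1 and 3 among 7. Over settings that left out 1 library, 5 to 7 members were positive and 5 to 7 negative. Removing a trend on gene span left 8 and 5 members, while the calls of all genes went from 4896 positive and 2933 negative to 3393 and 3333.

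Unmutated H3.3 and H3.1 stand in separate count tables, so table and genotype cannot be told apart in their comparison. There, 6 of 25 members were higher in H3.3 and 4 lower, or 40% against a background of 37.6%, made up of 19.8% higher and 17.8% lower. XTH9, XTH18, XTH22, XTH23, XTH27 and XTH30 were higher in H3.3. XTH10, XTH17, XTH19 and XTH31 were lower. XTH18 passed the filter only through the H3.3 libraries and so could hardly have been called lower. With the span trend removed, 5 members were higher and 6 lower, and leaving out 1 library gave 4 to 7 higher and 2 to 5 lower. The share of members called was near that of all genes, but the median size of a log2 difference was 0.79 among members and 0.35 among all genes. These medians were 0.76 and 0.22 in the H3.1 pair, 0.61 and 0.56 in the H3.3 pair, and 0.90 and 0.54 for the difference of effects. The part of low counts in these sizes was not tested.

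**Figure D3:**
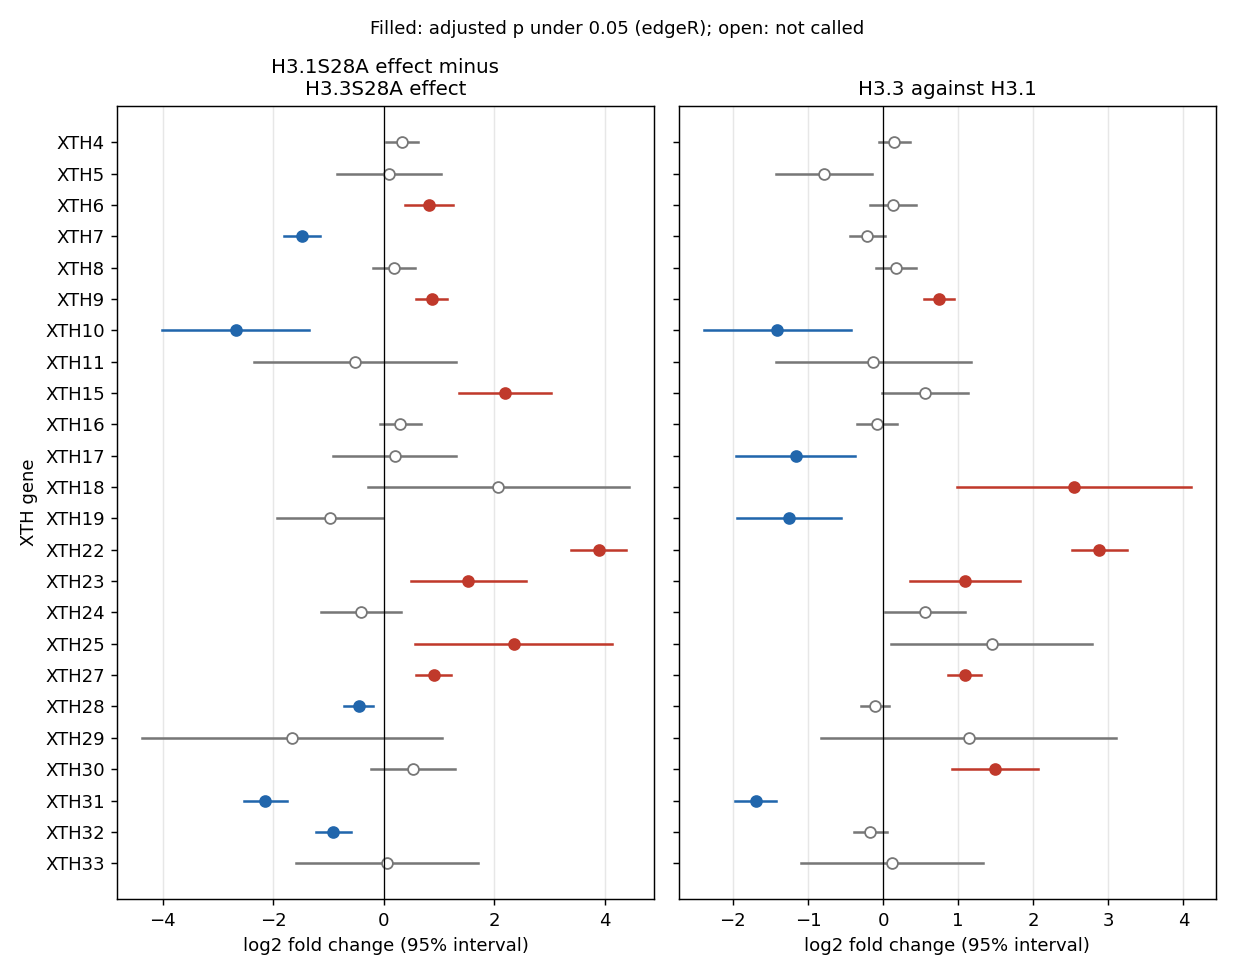
Left, the log2 change in H3.1S28A minus that in H3.3S28A; right, the log2 difference of H3.3 from H3.1; each row is an XTH gene, lines are 95% intervals and filled points passed an adjusted p of 0.05. XTH22 is farthest right in both panels (3.88 and 2.88), and XTH31 lies left of 0 in both (-2.15 and -1.70); XTH3 is not drawn because its interval runs from -26.61 to 21.53 on the left.

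XTH22 (AT5G57560), the touch gene TCH4, had the largest difference between the effects among the 12 members called for it. Its level was 8.31 and 7.38 CPM in the H3.1 libraries, and 42.7 and 36.7 CPM in those of H3.1S28A. With H3.3 it was 47.1 and 68.2 CPM, and with H3.3S28A 19.7 and 19.2 CPM. The order of genotypes from high to low was therefore H3.3, H3.1S28A, H3.3S28A and H3.1, with no overlap between any pair of them, although the H3.3 libraries spread so widely that the lower one lay within 5 CPM of the higher H3.1S28A library. In H3.1S28A XTH22 rose 5.06-fold over H3.1 (log2 2.34, SE 0.13, adjusted p 5.91e-07). In H3.3S28A it fell 2.86-fold against H3.3 (log2 -1.51, SE 0.16, adjusted p 1.404e-05). The unmutated genotypes differed 7.36-fold, H3.3 being higher (log2 2.88, SE 0.17, adjusted p 5.21e-07). The difference between the S28A effects was 3.88 (SE 0.23, adjusted p 5.49e-07). Across the alternatives run, this difference ran from 3.60 to 4.13.

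XTH22 lies on chromosome 5 next to XTH25, which is next to XTH13, with no other RefSeq gene between them. XTH12 follows, with 1 gene between it and XTH13. XTH25 (AT5G57550) had 0.228 and 0.403 CPM in the H3.1 libraries, 2.26 and 0.937 in those of H3.1S28A, 0.964 and 0.778 with H3.3, and 0.716 and 0.934 with H3.3S28A. The H3.1 libraries were the lowest, from 5 and 9 counts, and the H3.3 libraries overlapped both S28A genotypes, which lay apart from each other by 0.937 against 0.934 CPM. In the H3.1 pair XTH25 passed the filter only through H3.1S28A and could hardly have been called lower. XTH25 was higher in H3.1S28A (log2 2.25, SE 0.58, adjusted p 0.0223), and the difference of effects was 2.35 (SE 0.82, adjusted p 0.0389). The H3.1-pair call was lost without H3.1S28A replicate 1 (1.55, adjusted p 0.161), without H3.1 replicate 1 (1.93, 0.157) and without H3.1 replicate 2 (2.72, 0.0873). The difference of effects was lost under DESeq2 (2.33, adjusted p 0.0718), with a replicate block (2.28, 0.0654), and without any 1 library other than H3.1S28A replicate 2, with adjusted p from 0.0580 to 0.160. XTH12 and XTH13, the other genes of the row, had 2 counts and 1 count in all. How reads shared by near-identical copies were assigned is not given, so values of tandem neighbours are uncertain to that extent.

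XTH24 (AT4G30270), known as MERI5B from meristem-rich tissue, opens a second row on chromosome 4 with XTH18 and XTH19. Its levels were 13.7 and 19.5 CPM in the H3.1 libraries, 66.0 and 35.8 in those of H3.1S28A, 26.4 and 22.4 with H3.3, and 88.6 and 107 with H3.3S28A. The genotypes did not overlap, both S28A genotypes were above both unmutated ones, and H3.1S28A replicate 1 was well above replicate 2. XTH24 rose 3.04-fold in the H3.1 pair (log2 1.61, SE 0.23, adjusted p 7.38e-04) and 4.15-fold in the H3.3 pair (log2 2.05, SE 0.12, adjusted p 2.27e-07). The difference of the effects was -0.42, with a 95% interval of -1.14 to 0.31 (adjusted p 0.349). Without H3.1S28A replicate 1, the difference was called (-0.89) and the rise in the H3.1 pair was 1.11. That library had the higher of its genotype's floral marker sums, whose part in the XTH24 values was not tested. Both pair calls passed in every alternative run. H3.3 against H3.1 was not called for XTH24 (0.56, adjusted p 0.0933), but passed without either H3.1S28A library (0.54 and 0.56, adjusted p 0.0146 and 0.0135) and with no low count filter (0.55, 0.00337).

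The neighbours of XTH24 ordered the genotypes in other ways. XTH19 (AT4G30290), known from roots, had 3.65 and 3.49 CPM in the H3.1 libraries, 4.66 and 2.77 in those of H3.1S28A, 1.37 and 1.61 with H3.3, and 2.61 and 3.35 with H3.3S28A. The H3.3 libraries were the lowest, and the H3.1 libraries lay inside the range of H3.1S28A. XTH19 was lower in H3.3 than in H3.1 (log2 -1.26, SE 0.32, adjusted p 0.00850), a call lost without H3.3 replicate 1 (-1.14, 0.0644). It was higher in H3.3S28A than in H3.3 (log2 1.04, SE 0.35, adjusted p 0.0251). That rise was lost under DESeq2 (adjusted p 0.0720), with the span trend removed (0.65, 0.140), and without H3.3 replicate 1 (0.89, 0.133), H3.3 replicate 2 (1.14, 0.0720) or H3.3S28A replicate 2 (0.86, 0.127). The difference of effects of XTH19 was -0.97 (adjusted p 0.102), and -1.35 (0.0309) without H3.1S28A replicate 1. XTH18 (AT4G30280) had 4 and 2 counts in the H3.1 libraries, 5 and 4 in those of H3.1S28A, 14 and 18 with H3.3, and 7 and 4 with H3.3S28A. It passed the filter only through H3.3. Its counts were highest in H3.3, with a ratio to H3.1 of 6.05 (exact 95% interval 2.50 to 17.7, counting error only). The fitted log2 difference was 2.54 (SE 0.72, adjusted p 0.0149), and it was lost under DESeq2 (2.56, 0.0556) and without each of H3.1 replicate 1 (3.11, 0.0542), H3.1 replicate 2 (2.13, 0.138) and H3.3 replicate 2 (2.33, 0.0918).

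XTH15 and XTH16 are group II members of leaves and stems, and XTH15 is one of the family's shade-induced genes. XTH15 (AT4G14130) had 3.02 and 2.91 CPM in the H3.1 libraries, 8.61 and 5.58 in those of H3.1S28A, 4.77 and 3.94 with H3.3, and 2.45 and 1.95 with H3.3S28A. The order was H3.1S28A, H3.3, H3.1 and H3.3S28A, with no overlap. It rose in the H3.1 pair (log2 1.24, SE 0.25, adjusted p 0.00571) and fell in the H3.3 pair (log2 -0.92, SE 0.29, adjusted p 0.0190), and the difference of effects was 2.19 (SE 0.38, adjusted p 6.43e-04). The fall was lost under DESeq2 (adjusted p 0.0612) and without H3.3 replicate 1 (-0.82, 0.112) or H3.3S28A replicate 2 (-0.78, 0.0512), whereas the difference of effects was called in every alternative run. XTH16 (AT3G23730) had 31.8 and 39.7 CPM in the H3.1 libraries, 48.4 and 57.4 in those of H3.1S28A, 33.9 and 33.6 with H3.3, and 41.1 and 39.5 with H3.3S28A. H3.1S28A alone stood above all other libraries. XTH16 was higher in H3.1S28A (log2 0.57, SE 0.13, adjusted p 0.0109), a call lost without H3.1 replicate 1 (0.42, 0.120) and with the span trend removed (0.43, 0.0745). Its small rise in H3.3S28A (log2 0.31, SE 0.10, adjusted p 0.0192) turned to -0.14 (adjusted p 0.252) with the span trend removed, and was lost with all 8 libraries in one fit (0.28, 0.0689) and without H3.3 replicate 1 (0.27, 0.131) or H3.3 replicate 2 (0.28, 0.130).

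XTH17 and XTH23 complete the tested part of group II. XTH17 (AT1G65310), another root-associated gene, had 2.60 and 2.01 CPM in the H3.1 libraries, 4.09 and 3.58 in those of H3.1S28A, 1.32 and 0.726 with H3.3, and 1.64 and 1.25 with H3.3S28A. All 4 libraries of the H3.3 table lay below all 4 of the H3.1 table. It was lower in H3.3 than in H3.1 (log2 -1.16, SE 0.36, adjusted p 0.0242), a call lost without each of H3.1 replicate 1 (-0.97, 0.136), H3.1 replicate 2 (-1.34, 0.0512) and H3.3 replicate 2 (-0.80, 0.169). XTH23 (AT4G25810), next to XTH14 on chromosome 4, had 1.23 and 1.16 CPM in the H3.1 libraries, 1.76 and 2.60 in those of H3.1S28A, 2.84 and 2.28 with H3.3, and 1.53 and 1.71 with H3.3S28A. Its order of genotype means was that of XTH22, but H3.1S28A and H3.3 overlapped. XTH23 was called in neither pair, with log2 values of 0.89 (95% interval 0.13 to 1.65) and -0.61 (-1.38 to 0.16), though the latter became -0.98 (adjusted p 0.0363) with the span trend removed. The difference of these effects was 1.53 (SE 0.48, adjusted p 0.0237). H3.3 was higher than H3.1 (log2 1.1, SE 0.34, adjusted p 0.0225). The difference was lost under DESeq2 and without any of 5 libraries (both H3.1, H3.1S28A replicate 2, H3.3 replicate 1 and H3.3S28A replicate 1), at 1.21 to 1.58 with adjusted p from 0.0588 to 0.119. The H3.3 call was lost under DESeq2 (1.06, 0.0732), with the span trend removed (0.87, 0.0670) and without each of H3.1 replicate 1 (1.14, 0.0826), H3.1 replicate 2 (1.05, 0.119) and H3.3 replicate 1 (0.93, 0.134).

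**Figure D4:**
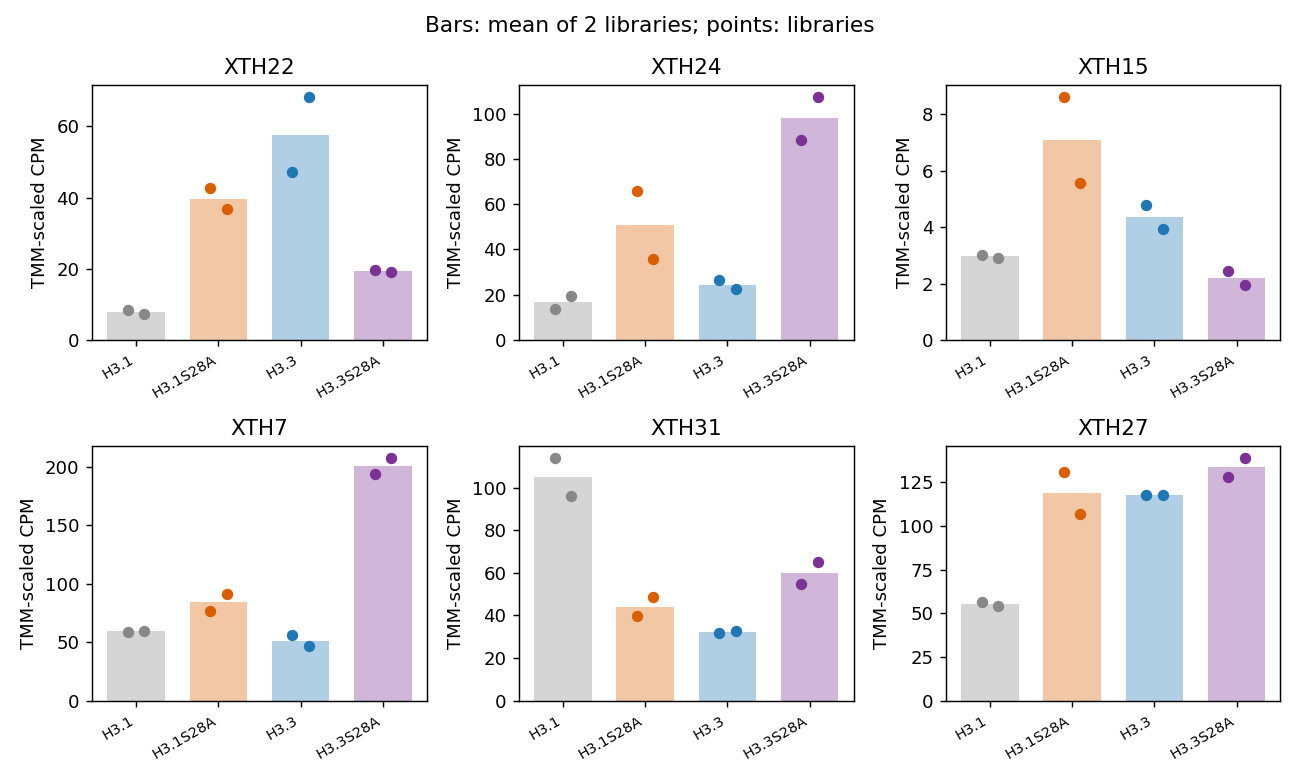
TMM-scaled CPM (vertical axes from 0) of 6 XTH genes in the 4 genotypes; bars are means of 2 libraries and points are the libraries. XTH24, XTH7 and XTH27 are higher in each S28A genotype than in its control, XTH22 and XTH15 are higher in H3.1S28A and lower in H3.3S28A, and XTH31 is highest in H3.1.

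Among group I, XTH4, XTH6 and XTH7 rose in both S28A genotypes, by unequal amounts. XTH4 (AT2G06850) had 166 and 179 CPM in the H3.1 libraries, 310.4 and 276 in those of H3.1S28A, 206 and 176 with H3.3, and 254 and 254 with H3.3S28A. The S28A libraries were above all unmutated ones, and H3.1 and H3.3 overlapped. Its rises were 1.70-fold in the H3.1 pair (log2 0.77, SE 0.11, adjusted p 5.60e-04) and 1.38-fold in the H3.3 pair (log2 0.46, SE 0.08, adjusted p 4.24e-04), and their difference of 0.33 was not called (95% interval 0.04 to 0.63, adjusted p 0.0666). The XTH4 difference was called, however, with no low count filter (0.35, 0.0331), without H3.1S28A replicate 2 (0.42, 0.0379) and without H3.3 replicate 2 (0.45, 0.0359). XTH6 (AT5G65730) had 49.9 and 70.4 CPM in the H3.1 libraries, 163 and 139.9 in those of H3.1S28A, 71.7 and 59.9 with H3.3, and 94.9 and 91.3 with H3.3S28A. H3.1S28A was the highest genotype and H3.1 and H3.3 overlapped again. XTH6 rose 2.52-fold in the H3.1 pair (SE of the log2 value 0.15, adjusted p 1.35e-04) and 1.47-fold in the H3.3 pair (log2 0.55, SE 0.09, adjusted p 3.85e-04), a difference of 0.81 (SE 0.20, adjusted p 0.00666).

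XTH7 (AT4G37800) was the group I member with the reverse balance. It had 59.2 and 59.8 CPM in the H3.1 libraries, 76.7 and 91.4 in those of H3.1S28A, 56.3 and 46.5 with H3.3, and 194 and 208 with H3.3S28A. H3.3S28A stood far above the rest, where the other genotypes lay within 46.5 to 91.4 CPM. It rose 4.04-fold in the H3.3 pair (SE of the log2 value 0.09, adjusted p 6.88e-08) and 1.42-fold in the H3.1 pair (log2 0.50, SE 0.11, adjusted p 0.0105). The smaller rise was lost without H3.1 replicate 1 (0.50, 0.0600) or H3.1 replicate 2 (0.51, 0.0653). The difference of effects was -1.48 (SE 0.15, adjusted p 1.29e-05) and was called in every alternative run.

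XTH9 (AT4G03210) was lowest in H3.1 and alike in range across the other genotypes. Its levels were 170.04 and 191 CPM in the H3.1 libraries, 319 and 296 in those of H3.1S28A, 290.2 and 313 with H3.3, and 297 and 261 with H3.3S28A. The last 3 genotypes overlapped and H3.1 lay below them all. XTH9 rose 1.71-fold in the H3.1 pair (log2 0.77, SE 0.11, adjusted p 5.39e-04), and was 1.67-fold higher in H3.3 than in H3.1 (log2 0.74, SE 0.09, adjusted p 1.03e-04). In the H3.3 pair the difference was -0.06, with a 95% interval of -0.24 to 0.11 (adjusted p 0.525), though with the span trend removed it was called lower (-0.30, 0.00943). The difference of effects was 0.86 (SE 0.13, adjusted p 2.57e-04).

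XTH3 and XTH10, both low in level, were higher in H3.3S28A than in H3.3. Both passed the filter of that pair only through H3.3S28A and could hardly have been called lower. XTH3 (AT3G25050), whose protein can also join cellulose chains, had 0 counts in both H3.1 libraries, 2 and 1 counts with H3.1S28A, 0 and 1 with H3.3, and 31 and 44 with H3.3S28A. It was thus close to undetected outside H3.3S28A. The ratio of 75 counts to 1 was 90.3 in H3.3S28A against H3.3 (exact 95% interval 15.7 to 3612, counting error only; adjusted p 1.31e-04 in the fit). Its fitted log2 value was 6.28 and depended on the library left out, from 5.40 without H3.3 replicate 1 and 5.68 without H3.3S28A replicate 2 to 8.44 without H3.3 replicate 2. XTH10 (AT2G14620) had 1.19 and 1.83 CPM in the H3.1 libraries, 0.776 and 1.19 in those of H3.1S28A, 0.507 and 0.622 with H3.3, and 2.81 and 1.95 with H3.3S28A. H3.3 was the lowest genotype and H3.3S28A the highest, with H3.1 and H3.1S28A meeting in between. XTH10 rose 4.37-fold in the H3.3 pair (log2 2.13, SE 0.46, adjusted p 0.00217), was not called in the H3.1 pair (-0.57, 95% interval -1.48 to 0.33), and had a difference of effects of -2.68 (SE 0.61, adjusted p 0.00404). Its lower level in H3.3 than in H3.1 (log2 -1.41, SE 0.45, adjusted p 0.0271) was lost under DESeq2 (-1.46, 0.0511) and without H3.1 replicate 2 (-1.06, 0.207), H3.3 replicate 1 (-1.27, 0.136) or H3.3 replicate 2 (-1.56, 0.0776).

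XTH5, XTH8 and XTH11 were called in none of the 4 comparisons. XTH8 (AT1G11545) ran from 18.5 to 24.6 CPM over the 8 libraries, and its 95% intervals in the pairs were -0.07 to 0.46 and -0.24 to 0.30 on the log2 scale. XTH5 (AT5G13870) ran from 1.401 to 5.03 CPM and was lowest in H3.3S28A and highest in H3.1. Its difference of H3.3 from H3.1 was -0.79 (adjusted p 0.0525), and it passed the threshold in 8 of 14 alternatives, with adjusted p from 0.0344 to 0.0495 there, among them leaving out H3.1S28A replicate 1, H3.3S28A replicate 1 or H3.3S28A replicate 2 (-0.80 each). XTH11 (AT3G48580) ran from 0.494 to 1.53 CPM, and its 2 H3.3S28A libraries were themselves at 1.53 and 0.545.

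Group III holds the hydrolase branch, where XTH31 and XTH32 changed in opposite directions in the H3.1 and the H3.3 pair. XTH31 (AT3G44990) had 114 and 95.9 CPM in the H3.1 libraries, 39.6 and 48.8 in those of H3.1S28A, 31.8 and 32.8 with H3.3, and 54.7 and 65.3 with H3.3S28A. H3.1 was the highest genotype, followed by H3.3S28A, H3.1S28A and H3.3, with no overlap. It fell 2.36-fold in H3.1S28A (log2 -1.24, SE 0.13, adjusted p 9.09e-05) and rose 1.92-fold in H3.3S28A (log2 0.94, SE 0.11, adjusted p 2.38e-05), a difference of -2.15 (SE 0.18, adjusted p 2.90e-06). In H3.3 it was 3.24-fold lower than in H3.1 (log2 -1.70, SE 0.13, adjusted p 2.99e-06). All of these calls of XTH31 passed in every alternative run. Its order of genotypes is the reverse of that of XTH22 (H3.3, H3.1S28A, H3.3S28A, H3.1).

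XTH32 (AT2G36870), the other member of that branch, changed less. It had 36.5 and 37.7 CPM in the H3.1 libraries, 24.6 and 29.0 in those of H3.1S28A, 32.87 and 32.98 with H3.3, and 45.9 and 43.3 with H3.3S28A. The genotypes did not overlap, and H3.1S28A was the lowest. It was lower in H3.1S28A (log2 -0.46, SE 0.11, adjusted p 0.0177), which was lost without H3.1S28A replicate 1 (-0.35, 0.0817), or without either H3.1 replicate 1 (-0.48, 0.0674) or H3.1 replicate 2 (-0.44, 0.110). It was higher in H3.3S28A (log2 0.49, SE 0.10, adjusted p 0.00129), and the difference of effects was -0.92 (SE 0.15, adjusted p 3.35e-04).

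XTH27 (AT2G01850), known as EXGT-A3 from the veins of leaves, was lowest in H3.1. It had 56.8 and 54.0 CPM in the H3.1 libraries, 131 and 107 in those of H3.1S28A, 117 and 118 with H3.3, and 128 and 139 with H3.3S28A. H3.1S28A overlapped both H3.3 and H3.3S28A. XTH27 rose 2.14-fold in the H3.1 pair (log2 1.1, SE 0.12, adjusted p 1.22e-04) and was 2.13-fold higher in H3.3 than in H3.1 (log2 1.09, SE 0.10, adjusted p 1.17e-05). Its rise in the H3.3 pair was 0.23 on the log2 scale (SE 0.07, adjusted p 0.0139). That small rise was lost with all 8 libraries in one fit (0.20, 0.101) and without H3.3 replicate 1 (0.19, 0.150), H3.3 replicate 2 (0.22, 0.110) or H3.3S28A replicate 2 (0.17, 0.0760). The difference of effects was 0.90 (SE 0.14, adjusted p 3.16e-04).

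XTH28 (AT1G14720), known from the growth of stamen filaments, varied little. It had 56.4 and 58.2 CPM in the H3.1 libraries, 50.2 and 52.6 in those of H3.1S28A, 52.4 and 53.3 with H3.3, and 62.4 and 66.2 with H3.3S28A. H3.3S28A was above all others. This genotype also had the highest floral marker sums, and their part in the XTH28 level was not tested. XTH28 was 1.26-fold higher in H3.3S28A than in H3.3 (log2 0.33, SE 0.08, adjusted p 0.00550), which was lost without H3.3 replicate 1 (0.28, 0.0927) or H3.3 replicate 2 (0.32, 0.0622). In the H3.1 pair it was at -0.15 (95% interval -0.37 to 0.07), and the difference of effects was -0.46 (SE 0.12, adjusted p 0.0104).

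XTH30 and XTH29 were both highest in H3.3S28A. XTH30 (AT1G32170) had 1.60 and 1.07 CPM in the H3.1 libraries, 3.88 and 3.62 in those of H3.1S28A, 3.96 and 3.53 with H3.3, and 7.11 and 7.24 with H3.3S28A. H3.1 was the lowest genotype, and H3.1S28A and H3.3 overlapped. XTH30 rose 2.80-fold in the H3.1 pair (log2 1.48, SE 0.31, adjusted p 0.00719), a call lost without H3.1 replicate 2 (1.22, 0.0767). It rose 1.98-fold in the H3.3 pair (log2 0.99, SE 0.22, adjusted p 0.00245) and was 2.80-fold higher in H3.3 than in H3.1 (log2 1.49, SE 0.26, adjusted p 9.83e-04). XTH29 (AT4G18990), which is known from responses to heat and drought, had 4 and 1 counts in the H3.1 libraries, 2 and 5 in those of H3.1S28A, 3 and 7 with H3.3, and 24 and 18 with H3.3S28A. Its 42 counts in H3.3S28A against 10 in H3.3 gave a ratio of 5.06 (exact 95% interval 2.50 to 11.3, counting error only). XTH29 passed the filter of the H3.3 pair only through H3.3S28A and could hardly have been called lower. The fitted log2 value of XTH29 was 2.37 (SE 0.62, adjusted p 0.00718), at 3.07 without H3.3 replicate 2 and lost without H3.3 replicate 1 (1.84, 0.0693). XTH33 (AT1G10550), the member found at the plasma membrane, ran from 0.411 to 1.09 CPM and was called in none of the 4 comparisons.

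Of the 17 genes tested that make and trim xyloglucan, 9 were called lower in H3.3S28A, the genotype with the highest XTH sums. In H3.1S28A 3 of the 17 rose, against 8.23% of all genes, and none fell: AXY4, which adds acetyl groups (log2 0.54), CSLC4, which makes the glucan backbone (0.44), and AXY8, a fucosidase (0.41). No call of these 3 held without H3.1 replicate 1 (0.54, 0.39 and 0.32, adjusted p 0.117, 0.117 and 0.213). CSLC4 (0.48, 0.0629) and AXY4 (0.54, 0.130) were also lost without H3.1 replicate 2, and AXY4 (0.37, 0.117) and AXY8 (0.31, 0.131) without H3.1S28A replicate 1. In H3.3S28A 9 of the 17 fell and 1 rose, where 29.7% of all genes fell and 28.8% rose, with a median log2 value of -0.65 over the list against 0.01 over all genes. With the span trend removed, 8 fell and 2 rose, with a median of -0.35. The largest falls were those of XYL1, the alpha-xylosidase (-1.29), CSLC12 (-1.07) and AXY8 (-0.88), and the rise was that of XLT2 (0.56), a galactosyltransferase. XYL1 had 400.02 and 409.7 CPM in the H3.1 libraries, 375 and 379 in those of H3.1S28A, 244 and 240.2 with H3.3, and 102 and 89.1 with H3.3S28A. Its H3.3S28A libraries were the lowest by far, in the genotype where the XTH sum was highest.

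Alpha-expansins, which loosen the wall without cutting it, were called higher for 10 of 15 tested genes in H3.3S28A and lower for none. Their median was 0.72, and 28.8% of all genes were higher and 29.7% lower. EXPA1 (log2 1.03), EXPA8 (1.02) and EXPA3 (0.91) rose most among those called. Under DESeq2 8 of the 15 were called higher, as were 8 with the span trend removed, where the median was 0.45. In H3.1S28A, where 8.23% of all genes rose and 5.26% fell, 3 of 14 rose, namely EXPA5 (0.61), EXPA6 (0.53) and EXPA11 (0.39), the last of which was lost without H3.1 replicate 1 (0.45, 0.0726) or H3.1 replicate 2 (0.32, 0.211) and with the span trend removed (0.27, 0.0982). Another 4 fell there, led by EXPA4 (-0.95), EXPA15 (-0.90) and EXPA8 (-0.48), of which EXPA8 was lost without H3.1 replicate 1 (-0.46, 0.0538). The difference of the effects was called for 10 of 15 expansins, negative each time, and for 9 of 17 xyloglucan genes, of which 8 were positive. Among all genes 24.4% were positive and 14.6% negative. Leaving out 1 library gave 7 to 9 negative expansins and 7 to 9 positive xyloglucan genes, and with the span trend removed these were 7 and 6.

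The genes of primary-wall cellulose synthesis are long, and their direction in H3.3S28A turned on how gene span was treated. Of all genes, 8.23% were called higher and 5.26% lower in H3.1S28A, and 28.8% and 29.7% in H3.3S28A. CESA6 (log2 0.42) and CESA3 (0.37), catalytic subunits of cellulose synthase, were the 2 of 6 genes called in H3.1S28A, both higher, though neither was called without H3.1 replicate 1 (0.31 and 0.29, adjusted p 0.159 and 0.163). Without H3.1S28A replicate 2 neither passed (0.35 and 0.33, adjusted p 0.0829 and 0.109), and CESA3 was lost without H3.1S28A replicate 1 too (0.40, 0.0526). In H3.3S28A 4 of the 6 fell, led by CSI1 (-1.41), which links the synthase to microtubules, CESA1 (-0.35) and CESA6 (-0.35), while COB rose (0.26), a call lost without H3.3 replicate 1 (0.20, 0.119) or H3.3 replicate 2 (0.25, 0.0666). With the span trend removed, 4 of the 6 were higher and none lower: CESA1 turned to 0.71 and CESA6 to 0.60, and CSI1 was at -0.04. In that setting 5252 of all 19729 genes were called higher and 4596 lower. Of 13 brassinosteroid genes, 12 were tested in the H3.1 pair, where BR6OX2, a late biosynthesis enzyme, was the only one called (0.46), and not without H3.1 replicate 1 (0.49, 0.0751) or H3.1 replicate 2 (0.44, 0.115). That share, 1 of 12, was near the 8.23% of all genes. In the H3.3 pair 4 of 13 rose and 3 fell, near the 28.8% and 29.7% of all genes, and with the span trend removed 7 rose and 2 fell. Among the 4 were BSU1 (2.47), a signalling phosphatase that passed the filter only through H3.3S28A, with 2 and 6 counts in the H3.3 libraries and 24 and 13 with H3.3S28A, and the biosynthesis genes DWF4 (0.64) and DET2 (0.62). BSU1 was lost without H3.3 replicate 1 (1.84, 0.0871) or H3.3S28A replicate 1 (2.31, 0.0590), and DET2 with the span trend removed (0.09). There, BAS1 (-1.15), which inactivates brassinosteroid, the receptor gene BRI1 (-0.74) and the biosynthesis gene DWF1 (-0.70) fell. BAS1 was lost without H3.3 replicate 1 (-0.88, 0.0537), and BRI1 with the span trend removed (-0.12).

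The touch-induced calmodulin genes were described together with TCH4 in the first work on touch genes. CML24, known as TCH2, had 15.6 and 13.6 CPM in the H3.1 libraries, 34.4 and 27.2 in those of H3.1S28A, 33.7 and 50.1 with H3.3, and 22.5 and 22.1 with H3.3S28A. H3.1 was the lowest genotype and H3.3S28A the next, as for XTH22, while H3.1S28A and H3.3 overlapped. CML24 rose in the H3.1 pair (log2 1.07, SE 0.14, adjusted p 4.17e-04), fell in the H3.3 pair (-0.86, SE 0.16, adjusted p 9.88e-04) and differed between these effects by 1.96 (SE 0.25, adjusted p 5.66e-05). In H3.3 it was higher than in H3.1 (log2 1.53, SE 0.17, adjusted p 5.10e-05). CAM2 was higher in H3.1S28A (0.41, adjusted p 0.0474) and in H3.3 against H3.1 (0.59, adjusted p 0.00238), though its near-identical copies make its counts uncertain. The first of these calls was lost under DESeq2 (adjusted p 0.0948), with the span trend removed (0.25, 0.197), and without each of H3.1 replicate 1 (0.160), H3.1 replicate 2 (0.188) and H3.1S28A replicate 1 (0.22, 0.321), and the second with the span trend removed (0.28, 0.0717). CML12, known as TCH3, was called only in H3.3 against H3.1 (0.55, adjusted p 0.0259), and that was lost without each of H3.1 replicate 1 (0.49, 0.134), H3.1 replicate 2 (0.61, 0.0854) and H3.3 replicate 2 (0.41, 0.191). In the H3.3 pair CAM2 was at 0.03 and CML12 at -0.39, neither called.

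Between the unmutated genotypes, all 3 touch-induced calmodulin genes were higher in H3.3, while 7 of 17 xyloglucan genes, 6 of 15 expansins and 3 of 6 cellulose genes were lower. The background was 19.8% higher and 17.8% lower. The count of lower xyloglucan genes was 3 without H3.1 replicate 2 or H3.3 replicate 2. For lower cellulose genes it was 1 without H3.1 replicate 2 or with the span trend removed, 2 without H3.3 replicate 2 and 5 without H3.1 replicate 1. The xyloglucan genes that differed most were BGAL10 (log2 -0.89), a galactosidase, XYL1 (-0.74) and MUR3 (-0.54), a galactosyltransferase, among the lower ones, and CSLC12 (1.97) and AXY8 (0.37), which were the 2 higher ones. EXPA16 (-2.17), EXPA8 (-1.87) and EXPA1 (-1.09) led the lower expansins, and EXPA6 (0.48) and EXPA5 (0.27) were higher. CSI1 (-0.49), COB (-0.45) and CESA1 (-0.44) were the lower cellulose genes. Of 13 brassinosteroid genes BR6OX2 (0.65) was higher, and the transcription factor genes BZR1 (-0.50) and BES1 (-0.31) were lower. MUR3 was lost without any 1 of the 4 unmutated libraries (-0.46 to -0.63, adjusted p 0.0614 to 0.157), and so was BES1 (-0.25 to -0.37, 0.0618 to 0.187). AXY8 was lost without H3.1 replicate 1 or either H3.3 library (0.27 to 0.39, 0.0517 to 0.0832), and EXPA5 without H3.1 replicate 2 or either H3.3 library (0.20 to 0.29, 0.108 to 0.212). Without H3.1 replicate 2 the calls of CSI1 (-0.39, 0.0633), CESA1 (-0.28, 0.0655) and BZR1 (-0.36, 0.125) were lost, as were CESA1 without H3.3 replicate 2 (-0.41, 0.0552) and BZR1 without H3.3 replicate 1 (-0.44, 0.0861). With the span trend removed CSI1, CESA1 and EXPA5 were not called (-0.12, -0.15 and 0.19), and EXPA5 was not called under RLE scaling or DESeq2 (0.23).

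**Figure D5:**
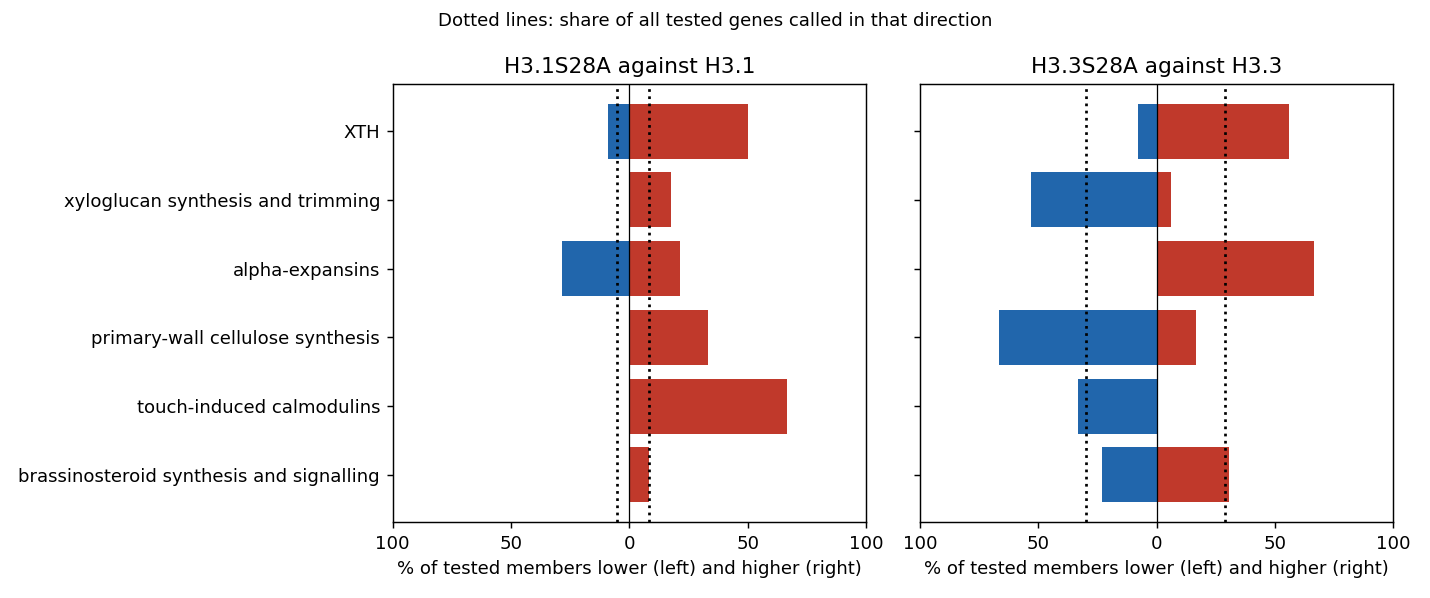
Percent of the tested members of each gene list that were called higher (right, red) or lower (left, blue) in H3.1S28A against H3.1 and in H3.3S28A against H3.3; dotted lines give the percent of all tested genes called in that direction. The XTH bar reaches 50% higher on the left panel and 56% on the right, and in the right panel xyloglucan synthesis and cellulose synthesis extend mainly to the lower side, of which cellulose synthesis flips to 4 higher and 0 lower with the span trend removed.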

How the data were processed

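The authors deposited counts of reads per gene as 2 tables of raw counts, one for the H3.1 pair and one for the H3.3 pair. The H3.1S28A columns, and the name of the table that holds them, carry the unexplained word new. Whether the H3.1S28A libraries were made or sequenced together with those of H3.1 is not stated. A difference of that kind could not be told apart from S28A in the H3.1 pair or in the difference of effects. The submitters' processing notes name the aligner HISAT2, the Subread package, DESeq2 and the build TAIR10. The sources used here give no versions, no strand setting and no treatment of reads with several matches. RNA was poly(A)-selected, per the labels' protocols. Another 30 samples, of chromatin immunoprecipitation, were not analysed here.

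Counts were tested with edgeR 4.0.16 (limma 3.58.1, R 4.3.3): TMM scaling, filterByExpr by genotype with a minimum count of 10, quasi-likelihood fit and Benjamini-Hochberg adjustment over all genes tested. Each pair was fitted on its own 4 libraries, and the difference of effects and H3.3 against H3.1 on all 8. The standard error is the log2 fold change divided by the square root of F. Printed levels use one TMM scaling of 8 libraries, and fold changes the scaling of their own fit. Sums over a list are CPM of the library total. Ratios of low counts carry exact conditional binomial 95% intervals for counting error only.

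The fits were tested on simulated data. All members are accounted for. Values per library and statistics are given for members called in any comparison, for XTH22 and for the 3 members highest per kb, and for each other list at most the 3 called genes with the largest change per direction. Values of XYL1, CML24, CAM2, CML12 and BSU1 beyond this rule, and those of uncalled members, were added after values were seen. Members and lists were chosen with earlier results of these data known. Names and gene spans came from a RefSeq TAIR10.1 table, which matched 97.5% of genes and all 33 members. Coding length was not used here, so levels per kb use the span of the gene, introns included. Figures were drawn with matplotlib 3.10.9.

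Alternatives were DESeq2 1.42.0, RLE scaling, no count filter beyond 1 count, a replicate block, a trend on gene span removed, organelle genes left out, all 8 libraries in one fit, and each library left out. The same alternatives were run on the named genes of the other lists after seeing the data.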

Additional observations from a re-analysis of the deposited data

Results flagged for a closer look

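For 12 XTH genes the effect of S28A in the H3.1 pair differed from that in the H3.3 pair by the edgeR test of the difference itself. On the log2 scale, with the effect in H3.1S28A first and that in H3.3S28A second, the difference was 3.88 for XTH22 (2.34 and -1.51), 2.35 for XTH25 (2.25 and -0.05), 2.19 for XTH15 (1.24 and -0.92) and 1.53 for XTH23 (0.89 and -0.61). It was 0.90 for XTH27 (1.1 and 0.23), 0.86 for XTH9 (0.77 and -0.06) and 0.81 for XTH6 (1.33 and 0.55). Negative differences were -2.68 for XTH10 (-0.57 and 2.13), -2.15 for XTH31 (-1.24 and 0.94), -1.48 for XTH7 (0.50 and 2.01), -0.92 for XTH32 (-0.46 and 0.49) and -0.46 for XTH28 (-0.15 and 0.33). The pairs stand in separate tables, and the floral marker sums moved with the S28A genotypes; the part of either was not tested. All of these were called in each alternative run except XTH23, lost in 6 of 14, and XTH25, lost in 9 of 14.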

How the results depend on the processing

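Of 627 values of called members under the alternatives, 565 kept their direction and their side of the threshold, 61 kept the direction and lost the call, and 1 reversed: XTH16 in the H3.3 pair, at -0.14 (adjusted p 0.252) with the span trend removed. For the named genes of the other lists, run after seeing the data, 758 of 828 values stayed, 66 lost the call and 4 reversed, all with the span trend removed: CESA1 (0.71) and CESA6 (0.60) in the H3.3 pair, and CESA6 (-0.081) and CESA3 (-0.18) in the difference of effects. Members called lower in the H3.3 pair numbered 2, against 1 under DESeq2 and 4 with the span trend removed; the cause was not tested. Leaving out 1 library gave 1 to 2 members lower in the H3.1 pair, 9 to 14 higher and 1 to 2 lower in the H3.3 pair, and 2 to 5 lower in H3.3 against H3.1. Where this left a genotype with 1 library, that library was assumed to vary like the others. Over all genes, 2560 calls in the H3.1 pair became 1324 without H3.1 replicate 1 and 1152 without H3.1 replicate 2. In H3.3 against H3.1, 7530 calls became 4307 without H3.1 replicate 2, 4474 without H3.3 replicate 1 and 4957 without H3.3 replicate 2. Libraries with the same replicate number did not deviate together (correlation of deviations -0.0125 and 0.0247), so the numbers are not taken as pairs; with the replicate block, 11 members were higher and 2 lower in the H3.1 pair, 14 and 2 in the H3.3 pair, 6 positive and 5 negative in the difference of effects (XTH25 lost) and 6 and 5 in H3.3 against H3.1 (XTH5 gained). No scaling moved the median of all genes by more than 0.06. At 3 counts or fewer per library a level could not be read, which holds for most of the 8 untested members.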
